A study of Mus musculus with 1115 samples.

Results

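Intermediate progenitor cells (IPCs) of one cluster of the embryonic mouse cortex are described here: the 67 cells that the authors' cell table labels IPCs and places in cluster 6, of 1115 cells in all and 35.1% of all labelled IPCs. They were chosen by those 2 annotations alone. Cluster 6 held 89 cells, of which the other 18 ENs (excitatory neurons) and 4 RGCs (radial glial cells) were not counted as members. The cells came from the cerebral cortex of C57BL/6 embryos at embryonic day 13.5. Every embryo had been electroporated in utero with 1 plasmid in which the CAG promoter, active in most cell types, drives mRFP and the Hes5 promoter drives GFP, so all groups carry both reporters. Single viable cells were sorted into a Hes5_GFP group (mRFP and GFP positive, 65.6% of the cells, 44 of them members) and a CAG_mRFP group (mRFP positive and GFP negative, 34.4% of the cells, 23 members), and were sequenced with a modified full-length Smart-seq2 protocol. The reporters are read from a plasmid in the cells it reached, so a level of eGFP or mRFP also depends on how much plasmid a cell holds. The title of the study concerns Sox9 levels in radial glia.

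The table assigned 46 members (68.7%) to G1, 16 to S and 5 to G2M. They were set beside the G1 RGCs of cluster 1 (14.1% of all cells), the ENs of cluster 2 (13.9%), the IPCs of cluster 4 (10.4%), of which 89.7% were assigned to G2M, and the 18 ENs of cluster 6, all in G1. The Hes5_GFP group made up 65.7% of the members, 87.3% of these G1 RGCs and 17.4% of the ENs of cluster 2. Its share was 62.1% in the IPCs of cluster 4 and 55.6% in the ENs of cluster 6. Ratios between classes were not adjusted for sort group or plate. The sort day, numbered 1 to 4, was the replicate, with 6, 6, 26 and 29 members. The labels name no embryos, so the SDs and p-values cover the spread between days, and intervals cover counting error only. The members of days 1 and 2 shared 1 library preparation date that days 3 and 4 did not use, and 4 of the 6 members of day 2 were in G2M. The 12 members of those days had more counts (medians 1035270 and 1193260 on days 1 and 2, and 150476 and 269305 on days 3 and 4), so results that change without them are given both ways. Total counts per member ranged from 7617 to 1916827 with a median of 267798. Of the 7 G1 RGCs of day 2, only 2 shared the preparation date of the members, so ratios to them on that day cross preparation dates. All 7 were of the Hes5_GFP group, with a median of 124866 counts. The ENs of cluster 2 numbered 4 on day 2, and the IPCs of cluster 4 numbered 4 on day 1. Because the clusters were made from the genes of these cells, no gene was tested between clusters, and ratios to other clusters are descriptions.

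Intermediate progenitors arise from radial glia, the stem cells that line the ventricle. They leave the ventricular surface, divide a limited number of times in the subventricular zone, and produce most excitatory neurons of the cortex. The T-box factor Eomes (Tbr2) is their usual marker. Their onset is driven by Neurogenin 2, a proneural basic helix-loop-helix (bHLH) factor that binds E-boxes with a partner such as Tcf4 or Tcf12 and switches on later bHLH genes of the Neurod family. Notch signalling opposes this: a neighbour's Delta ligand activates Notch receptors, which raise the Hes and Hey repressors of proneural genes.

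The 5 genes given in advance as marks of these cells were Neurog1 and Neurog2, the Neurogenin factors, Gadd45g, a growth arrest and stress response gene, Btbd17, a BTB domain gene, and Akna, whose product sits at the centrosome and promotes detachment of progenitors from the ventricle. In the GENCODE annotation of GRCm38 (mm10), Neurog1 is a gene of 1 exon on the reverse strand of chromosome 13 from 56250478 to 56252163. Neurog2 has 2 exons on the forward strand of chromosome 3 from 127633135 to 127635631. Gadd45g has 4 exons on the forward strand of chromosome 13 from 51846678 to 51848468. Btbd17 has 3 exons on the reverse strand of chromosome 11 from 114791217 to 114795945. Akna has 22 exons in its longest model on the reverse strand of chromosome 4 from 63367125 to 63403354, and the antisense gene Aknaos overlaps it. No source used here says whether counting used the strand, so reads of such pairs cannot be told apart.

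The 250 bases before the RefSeq start (build GRCm38.p6) are printed for the 2 Neurogenin genes and for Gadd45g, the mark found in the most members, because all 3 are among the marks just named and their members' levels open the results below. They lie at chr13:56252181-56252430 on the reverse strand, chr3:127632886-127633135 on the forward strand and chr13:51846425-51846674 on the forward strand. Capitals mark the E-box CAGCTG and the TATA-like word TATANAAG.
Neurog1: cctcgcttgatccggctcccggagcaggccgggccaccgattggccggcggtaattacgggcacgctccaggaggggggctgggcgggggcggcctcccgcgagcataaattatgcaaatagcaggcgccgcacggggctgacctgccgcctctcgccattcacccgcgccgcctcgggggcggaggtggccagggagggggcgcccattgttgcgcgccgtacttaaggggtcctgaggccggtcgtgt
Neurog2: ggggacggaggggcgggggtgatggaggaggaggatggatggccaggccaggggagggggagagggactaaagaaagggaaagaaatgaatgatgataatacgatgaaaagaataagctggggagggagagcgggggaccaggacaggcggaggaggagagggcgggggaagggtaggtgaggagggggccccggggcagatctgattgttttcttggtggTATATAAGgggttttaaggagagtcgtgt
Gadd45g: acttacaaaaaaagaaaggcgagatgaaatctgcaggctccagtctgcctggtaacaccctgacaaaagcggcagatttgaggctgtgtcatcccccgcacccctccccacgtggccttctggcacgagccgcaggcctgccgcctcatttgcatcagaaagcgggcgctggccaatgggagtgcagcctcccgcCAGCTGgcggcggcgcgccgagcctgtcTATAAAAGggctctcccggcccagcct
The E-box CAGATG, searched on both strands like every motif here, was in none of these windows nor in those of Btbd17 and Akna, against 14.4% of 32851 windows of the same length. CAGCTG was in that of Gadd45g only, against 13.001% of windows. The general E-box CANNTG, which includes the other E-boxes, was found at 3 places before Gadd45g, at 3 and 1 before the 2 annotated starts of Akna, and not before Neurog1, Neurog2 or Btbd17, against 66.2% of windows. TATANAAG, a word chosen after the sequences had been seen, began 29 bases before the start of Neurog2, 27 before that of Gadd45g and 34 before that of Btbd17, against 3.24% of windows with a match anywhere. It was not found before Neurog1 or Akna. The RefSeq window of Btbd17 (chr11:114795893-114796142) overlaps the GENCODE model given above, and the word lies within that overlap. These matches are descriptions and do not locate binding.

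The Neurogenin genes were higher in the members than in both the G1 RGCs and the ENs of cluster 2. Values below are CPM, the summed counts of a gene on a day scaled to the same library total. Neurog1 was at 132.004, 120.5, 57.8 and 48.9 CPM in the members on days 1 to 4, at 13.7, 0, 1.75 and 2.40 CPM in the G1 RGCs, at 42.1, 46.2, 9.96 and 21.8 CPM in the IPCs of cluster 4, and at 0, 1.72 and 0 CPM in the ENs of cluster 2 on days 2 to 4. Every day of the members lay above every day of the other 3 classes. The ENs of cluster 6 were at 23.4 and 14.1 CPM on days 3 and 4, below the members. The mean within-day log2 ratio, taken on CPM + 5 here and below, was 3.40 ± 0.85 (SD, n = 4 days) to the G1 RGCs, 3.77 ± 0.77 (n = 3) to the ENs of cluster 2 and 1.48 ± 0.45 (n = 4) to the IPCs of cluster 4. With 6 members on days 1 and 2, 1 cell can carry a day, so values were also computed without, on each day, the member with the most counts of the gene, a setting chosen after seeing the data that leaves the other classes whole. Such removal tends to lower the members' levels, so it is a check on higher levels only. A gene is counted as higher or lower here when its mean log2 ratio was at least 1 in size with 1 sign on every day. Without those members Neurog1 was at 114.7, 56.3, 53.9 and 41.8 CPM, the last below day 2 of the IPCs of cluster 4, and was still counted with ratios of 3.02, 3.32 and 1.10.

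Neurog2 was at 336.98, 631.6, 98.6 and 74.7 CPM in the members on days 1 to 4, at 55.8, 0, 15.5 and 12.6 CPM in the G1 RGCs, and at 125.2, 27.4 and 5.57 CPM in the ENs of cluster 2 on days 2 to 4. The members were higher within each shared day, although their days 3 and 4 lay below the EN value of day 2. A single cell gave 77.6% of the Neurog2 counts of day 1 and 68.02% of those of day 2. The ratio was 3.50 ± 2.33 to the G1 RGCs and 2.29 ± 0.62 to the ENs, and without days 1 and 2 it was 2.26 and 2.30. Without the members with the most counts it was 2.55 and 1.65. Against the IPCs of cluster 4 at 454.2, 167.2, 63.1 and 67.9 CPM, the ratio of 0.55 ± 0.99 changed sign between days. Neurog1 was detected in 53 members and Neurog2 in 42, and 31 members held reads of both.

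Gadd45g was at 831, 738, 866 and 1019 CPM in the members and was detected in 66 of 67. It was at 122.3, 14.4, 44.997 and 53.9 CPM in the G1 RGCs, 561.4, 486.9, 375.7 and 633.2 CPM in the IPCs of cluster 4 and, on days 2 to 4, 483.4, 206.6 and 178.6 CPM in the ENs of cluster 2. The members lay above each of these classes on every day, but 1 cell gave 64.5% of their day 1 counts. Without it day 1 was at 348.8 CPM, below the IPCs of cluster 4 of that day and still above the G1 RGCs. The ratio was 4.05 ± 1.04 to the G1 RGCs, 1.71 ± 0.98 to the ENs and 0.76 ± 0.29 to the IPCs of cluster 4, the last under the 2-fold limit. Without the members with the most counts these were 3.58, 1.48 and 0.28, the last with 1 day below.

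Btbd17 was at 178.4, 285.7, 98.8 and 198.7 CPM in the members, at 5.48, 0, 2.06 and 9.04 CPM in the G1 RGCs, at 17.9, 50.6, 84.95 and 73.4 CPM in the IPCs of cluster 4 and at 62.5, 51.1 and 54.99 CPM in the ENs of cluster 2. The members lay above the 3 classes on every day, but 1 cell gave 80.2% of their day 2 counts. Without it day 2 was at 62.2 CPM, within the range of the IPCs of cluster 4 and beside the ENs of cluster 2 of that day. The ratio was 4.43 ± 0.96 to the G1 RGCs, 1.74 ± 1.22 to the IPCs of cluster 4 and 1.59 ± 0.63 to the ENs of cluster 2, and without the members with the most counts it was 3.68, 0.99 and 0.75, of which only the first was still counted. The ENs of cluster 6, at 194.6 and 288.7 CPM, lay above the members on both days they shared. Akna was at 453.3, 748, 161.1 and 86.5 CPM in the members and 41.3, 16.2, 12.5 and 7.09 CPM in the G1 RGCs, and its members were highest on days 1 and 2. Its ratio was 3.66 ± 1.01 to the G1 RGCs and 1.27 ± 1.07 to the ENs of cluster 2. A single cell gave 58.7% of the day 2 counts, and without the members with the most counts the ratios were 3.001 and 0.51, the second no longer counted. Akna was also higher on days 1 and 2 in the IPCs of cluster 4 (469.6, 496.9, 89.1 and 57.7 CPM). Day and preparation date cannot be told apart there.

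**Figure D1:**
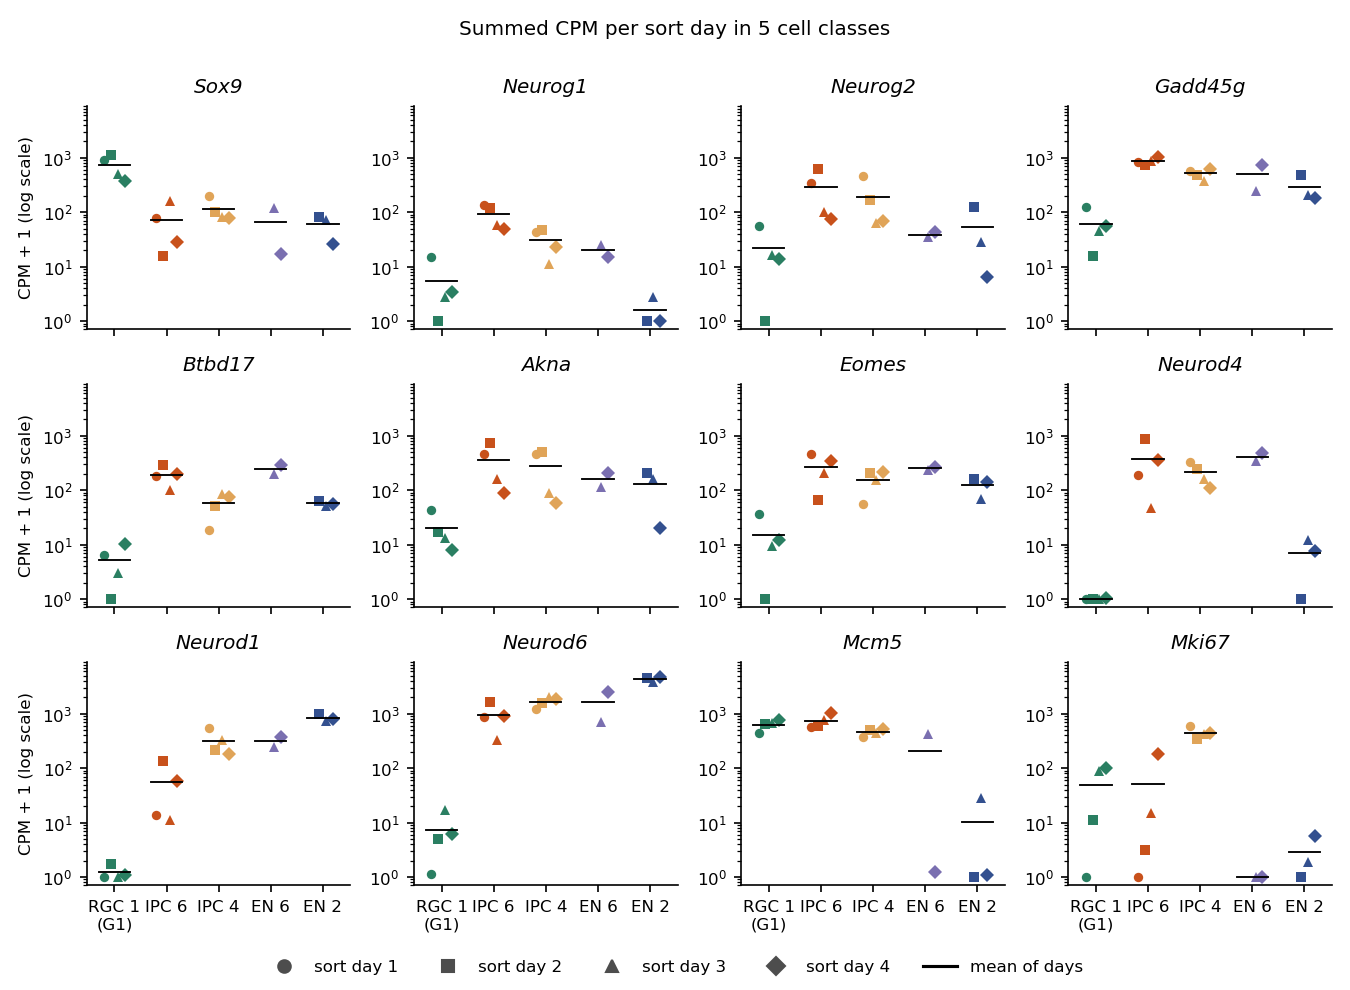
Summed CPM + 1 on a log scale for 12 genes in 5 classes of cells (number after the class name: cluster), 1 symbol per sort day, with the mean of the days as a line. Neurog1 and Gadd45g are highest in the cluster 6 IPCs, Sox9 is highest in the G1 RGCs, Neurod6 in the ENs of cluster 2 and Mki67 in the IPCs of cluster 4.

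The IPC label was set beside these marks, which were given in advance. The clusters were made from the genes of these cells, so the shares below are a description. At least 3 of the 5 were detected in 85.1% of members, against 7.64% of G1 RGCs, 10.3% of ENs of cluster 2, 66.4% of IPCs of cluster 4 and 77.8% of ENs of cluster 6. Cells thinned to 50000 counts, which left out 9 shallower members, gave Neurog1 in 74.1% of members, 5.48% of G1 RGCs, 36.6% of IPCs of cluster 4 and 0.763% of ENs of cluster 2 (79.1%, 5.73%, 45.7% and 1.94% before thinning). Eomes was at 468.2, 64.8, 203.4 and 343.96 CPM in the members and 35.9, 0, 8.29 and 11.4 CPM in the G1 RGCs, and was detected in 50 members and 8.28% of G1 RGCs. A single cell gave 96.9% of the Eomes counts of day 2, which was at 2.55 CPM without it. The Eomes ratio was 3.93 ± 0.37 to the G1 RGCs, or 2.83 ± 1.55 without the members with the most counts, and 0.49 ± 1.52 to the ENs of cluster 2, whose range of 69.1 to 161.5 CPM overlapped that of the members. Those markers of other tissues that were among the counted genes were at or near 0. The summed level on the highest day was 2.05 CPM for interneurons (5 of 7 genes counted), where Dlx2, Dlx5, Gad1 and Gad2 had no read. It was 2.05 CPM for Cajal-Retzius cells (3 of 7), 0.162 CPM for endothelium, 0.136 CPM for meningeal fibroblasts (4 of 5) and 6.34 CPM for erythroid cells. For cortical hem and choroid plexus (3 of 6) it was 0.811 CPM. Only 2 of 5 pericyte genes (Rgs5 and Pdgfrb) and 1 of 7 microglia genes (Csf1r) were counted, and these had no read in the members.

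Against the G1 RGCs of cluster 1, the members had low levels of most radial glia genes and high levels of most intermediate progenitor genes. By the rule given above 4.56% of 10567 genes were higher and 8.93% lower, and the median of all genes was -0.22. Without days 1 and 2, fewer days had to share a sign and the shares were 7.27% and 16.9%. Of 15 radial glia markers, 13 were lower, none was higher and the median ratio was -2.78. Of 15 intermediate progenitor markers, 13 were higher, none was lower and the median was 3.66. That list includes all the marks given in advance, each of them among the 13, so this count is not separate from those marks. Of 12 neuron markers compared, 5 were higher (Tubb3, Dcx, Neurod1, Neurod2 and Neurod6) and the median was 0.53. Without days 1 and 2, 14 of 15 radial glia markers were lower and 15 of 15 progenitor markers higher. Without the members with the most counts of each gene, 15 radial glia markers were lower, 12 progenitor markers higher (Insm1 no longer), and 3 neuron markers higher (Dcx and Neurod1 no longer) with 2 lower. Because that setting tends to lower the members' levels, its counts of lower markers are no check on those given above.

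Sox9, a factor of radial glia, was at 77.03, 14.4, 160.4 and 27.8 CPM in the members and 915, 1138, 496.6 and 372.9 CPM in the G1 RGCs, with a ratio of -3.62 ± 1.75. The members lay below the RGCs on every day, and 35 of 67 still held a read of it. Pax6, a homeobox factor of radial glia, was at 11.03, 22.5, 307.1 and 73.04 CPM against 307.4, 433.5, 378.2 and 456.9 CPM. Within the members it was highest on day 3, where it came close to the RGCs, and its ratio was -2.78 ± 1.82. Fabp7, a fatty acid binding protein of radial glia, was at 69.7, 52.7, 76.4 and 67.3 CPM against 313.9, 1058, 1345 and 1544 CPM, with a ratio of -3.69 ± 1.08. Sox2 was the member of the list with the smallest ratio (-0.65 ± 0.41), and Notch1 the other that was not counted (-0.78 ± 0.67).

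The genes named by rule as lowest relative to the G1 RGCs included surface receptors of radial glia. Ednrb, the endothelin receptor B, was detected in 2 of 67 members, with 2 counts in all, and in 68.2% of G1 RGCs at 95.5, 293.2, 402.6 and 493.6 CPM. Ttyh1 was at 0, 0, 0.932 and 9 CPM against 310.5, 342.7, 222.1 and 202.2 CPM. Ptprz1, a receptor phosphatase, was at 0.162, 0.136, 85.2 and 16.7 CPM against 274.01, 871, 512.8 and 510.1 CPM. Ntrk2, the receptor TrkB, was at 0, 3.94, 97.9 and 19.4 CPM against 267.4, 1039, 344.5 and 397.9 CPM. In all 4 the classes did not overlap, and the members' highest values were on days 3 or 4. Tnfrsf19 had no read in 67 members, which allows up to 4.48% of such cells with a read, and was at 348.9, 42.5, 104.8 and 95.99 CPM in the G1 RGCs. The others named by the rule were Mest, Cyr61, Sox2ot, Cdca7l, Psat1, Ajuba and Vcam1, with ratios from -5.12 ± 1.77 to -4.32 ± 0.99. Mest overlaps Copg2 in the annotation.

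The genes named as highest relative to the G1 RGCs included a receptor and RNA-binding proteins of the neuronal line. Sstr2, a somatostatin receptor, was at 346.9, 376.6, 631.2 and 440.9 CPM in the members and 0.0772, 0, 0.0623 and 0.350 CPM in the G1 RGCs, with a ratio of 6.43 ± 0.38, and at 407.8, 459.7, 613.9 and 405.3 CPM in the IPCs of cluster 4. Its levels in the 2 IPC clusters overlapped, and it was higher still in the ENs of cluster 2 (898, 1180.0 and 1273 CPM on days 2 to 4). Elavl4 and Elavl2, neuronal RNA-binding proteins, were at 1281, 1011, 675.2 and 823 CPM and at 370.6, 807, 572.6 and 422.2 CPM in the members, with ratios of 5.09 ± 1.48 and 4.66 ± 1.64. Igsf21 was at 150.98, 193.2, 131.5 and 60.9 CPM in the members with no read in the G1 RGCs, which allows up to 1.91% of such cells with a read. All 12 genes named so were still counted without the members with the most counts. The rest by the rule were Neurod6, Neurod4, Nsg2, Mfap4, Tagln3, Igfbpl1, Syt4 and Lzts1. Igfbpl1 was at 1135, 1218, 86.9 and 220.7 CPM in the members, highest on days 1 and 2, and Lzts1 at 360.7, 736, 1157 and 1794 CPM, highest on days 3 and 4.

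**Figure D2:**
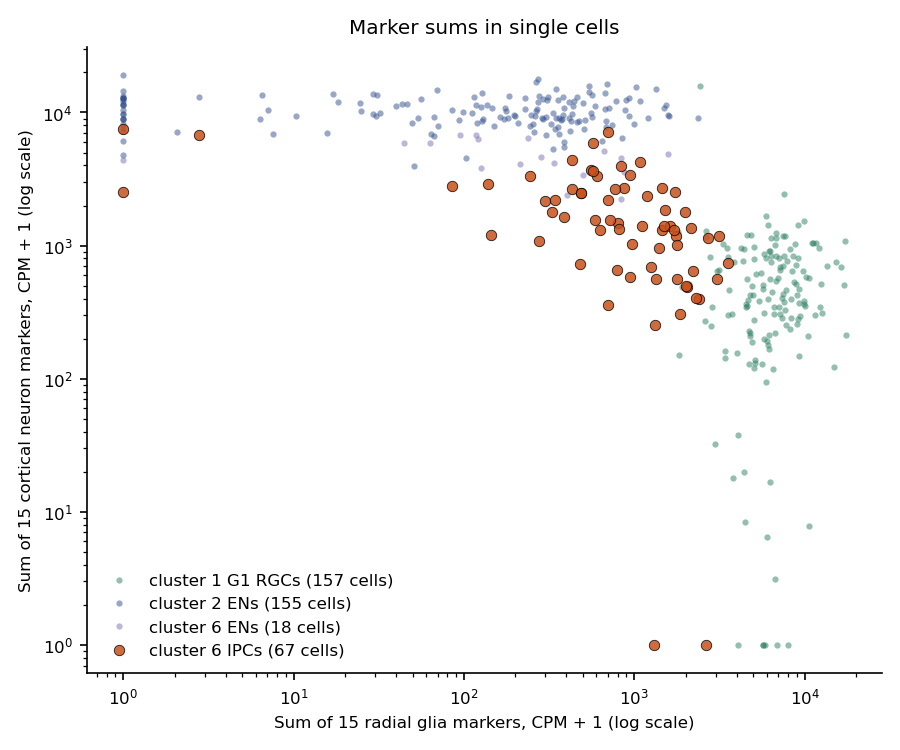
Each point is 1 cell, by the summed CPM + 1 of 15 radial glia markers (x axis) and of 15 cortical neuron markers (y axis), both on log scales. The members have a median radial glia sum of 943 CPM against 6267 CPM in the G1 RGCs, and a median neuron sum of 1412 CPM against 9832 CPM in the ENs of cluster 2 and 4615 CPM in the ENs of cluster 6.

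Single members were spread between radial glia and neurons. The radial glia sum of a member ranged from 0 to 3541 CPM, and 13 of 67 members exceeded the lowest G1 RGC. The neuron sum ranged from 0 to 7536 CPM, and 7 members exceeded the lowest EN of cluster 2. Such a spread was not particular to the members: in the IPCs of cluster 4 the radial glia sum ranged from 0 to 3247 CPM and the neuron sum from 21.2 to 9696 CPM. Over the 67 members the 2 sums had a Pearson r of -0.36 and a Spearman rho of -0.60 on log values, and an r of -0.24 within day 3 (26 members) and -0.37 within day 4 (29 members). Both sums share each cell's library and total count, so this is a description. The intermediate progenitor sum, which includes the marks given in advance, had a median of 5337 CPM against 227.7 CPM in the G1 RGCs, of which 6 exceeded the lowest member.

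The bHLH genes followed different courses through the classes. Of 9 proneural and differentiation bHLH genes compared with the G1 RGCs, 8 were higher in the members (median 3.22), or 6 without the members with the most counts (Neurod1 and Nhlh1 no longer). Against the ENs of cluster 2, 12.3% of 10269 genes were higher and 9.39% lower, and of 10 of these bHLH genes Neurog1, Neurog2, Neurod4 and Hes6 were higher and Neurod1, Neurod2, Neurod6 and Nhlh2 were lower. Against the IPCs of cluster 4, 3.21% of 9998 genes were higher and 5.09% lower, and of the 10 Neurog1 was higher and Neurod1 and Neurod2 were lower. Without days 1 and 2, 9.39% became 17.1%, 3.21% became 8.46% and 5.09% became 10.9%. Neurod4 was at 186.01, 887, 46.2 and 352.6 CPM in the members and had 1 count in all the G1 RGCs. It was at 328.9, 240.2, 162.2 and 110.6 CPM in the IPCs of cluster 4, 338.7 and 484.8 CPM in the ENs of cluster 6 on days 3 and 4, and 0, 10.9 and 6.76 CPM in the ENs of cluster 2 on days 2 to 4. On both shared days the ENs of cluster 6 were thus far above those of cluster 2. Only 21 of 67 members held a Neurod4 read, and 1 cell gave 61.3% of the day 2 counts and 1 gave 73.03% of those of day 4.

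Neurod1 was at 12.8, 133.3, 10.1 and 58.04 CPM in the members, detected in 11 of 67, against 545.98, 212.1, 332.7 and 181.7 CPM in the IPCs of cluster 4, 246.1 and 373.5 CPM in the ENs of cluster 6 and 1005, 745 and 782 CPM in the ENs of cluster 2. The members were below each of these on every shared day, with ratios of -2.91 ± 2.13 to the IPCs of cluster 4 and -4.05 ± 1.43 to the ENs of cluster 2. Neurod6 was at 853, 1619.7, 324.8 and 913 CPM in the members, 0.154, 4.06, 15.8 and 5.04 CPM in the G1 RGCs, 1219, 1575, 2001 and 1838 CPM in the IPCs of cluster 4 and 4514, 3851 and 4734 CPM in the ENs of cluster 2. It was thus present in 46 members, more than held Neurod1. Hes6, a bHLH factor that counters Hes1, was at 808, 791, 1457 and 1168 CPM against 63.6, 99.7, 134.9 and 141.8 CPM in the G1 RGCs, a ratio of 3.22 ± 0.31 with the smallest spread over days of this list. The bHLH partners Tcf4 and Tcf12 were near the G1 RGCs (0.56 ± 0.31 and 0.08 ± 1.57) and lower than the ENs (-1.01 ± 0.27 and -1.26 ± 0.26).

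Of 9 genes known as targets of Neurogenin 2, 7 were higher than in the G1 RGCs (Neurod1, Neurod4, Rnd2, Eomes, Hes6, Dcx and Nhlh1; median 2.91), and Dll1 and Tbr1 were not counted. Without the members with the most counts, 3 were (Neurod4, Eomes and Hes6; median 0.97). Rnd2, a small GTPase used in migration, was at 53.03, 65.97, 60.8 and 115.96 CPM in the members and 0.0772, 0, 9.72 and 0.0999 CPM in the G1 RGCs. Tbr1, a T-box factor of postmitotic neurons, was detected in 4 of 67 members and was at 115.4, 101.95 and 94.04 CPM in the ENs of cluster 2, with a ratio to these of -4.40 ± 0.18. Insm1, a zinc finger factor of delaminating progenitors, was at 25.3, 16.2, 29.6 and 20.9 CPM in the members and 23.3, 0, 2.99 and 0.849 CPM in the G1 RGCs, with a ratio of 1.61 ± 1.01. The members did not lie above the RGCs by much on day 1, where 1 cell gave 72.4% of the counts, and without the members with the most counts Insm1 was no longer counted (1.02 ± 1.46). Of 16 delamination and apical junction genes compared with the G1 RGCs, Akna, Insm1, Scrt2 and Ctnna2 were higher, and the atypical protein kinase C Prkci, the apical polarity gene Crb2 and the tight junction gene Tjp1 were lower. Of the higher genes Akna alone was still counted without the members with the most counts. Cdh2, the cadherin of the apical junctions, was not counted (-0.24 ± 1.97).

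On the Notch side, several repressors and receptors were lower than in the G1 RGCs, and the ligand Dll3 was higher. Of 7 inhibitory HLH genes, Hes1, Hes5, Hey1 and Id4 were lower and none higher (median -1.66, or -2.24 with a gene read on 1 side only placed at a bound of 3 counts). Hes5, whose promoter drives the reporter, was at 0, 6.38, 14.2 and 5.61 CPM in the members, in 4 of 67 cells, and at 34.8, 21.05, 75.1 and 65.1 CPM in the G1 RGCs, 52.9% of which held a read, with a ratio of -2.24 ± 0.80. Hes1 was at 24.97, 1.22, 22.2 and 1.43 CPM against 81.2, 19.2, 45.9 and 25.4 CPM, a ratio of -1.66 ± 0.58. The member values of Hes1 on days 1 and 3 exceeded the RGC value of day 2, so the classes overlapped across days. Of 3 receptors compared, Notch2 (-3.86 ± 0.54) and Notch3 (-2.03 ± 1.83) were lower, and Notch1 was at 316.2, 226.2, 45.9 and 16.04 CPM against 461.2, 227.5, 94.5 and 58.8 CPM.

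Dll3 was at 124.2, 9.91, 52.2 and 29.9 CPM in the members and had 6 counts in the G1 RGCs over all days, with a ratio of 3.12 ± 1.30. A single cell gave 83.2% of the day 1 counts and 1 held those of day 2, and without the members with the most counts Dll3 was no longer counted (1.93 ± 1.31). It was at 133.5, 15.2, 51.9 and 52.6 CPM in the IPCs of cluster 4, which overlapped the members. Dll1 was at 70.2, 0.136, 291.8 and 87.7 CPM in the members and 84.1, 0.369, 48.8 and 16.8 CPM in the G1 RGCs, and its ratio of 1.06 ± 1.41 changed sign between days. Mfng, a fringe enzyme that modifies Notch receptors, was at 419.7, 461.9, 481.4 and 438.9 CPM in the members, 43.1, 3.69, 32.8 and 52.2 CPM in the G1 RGCs and 301.9, 361.3, 361.3 and 388.1 CPM in the IPCs of cluster 4. It was detected in 62 members, and its ratio to the G1 RGCs was 3.88 ± 1.28. Its relative Lfng went the other way, with no read in 67 members (up to 4.48% of such cells could hold one) and reads in 21.7% of G1 RGCs.

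Hey1, a bHLH repressor downstream of Notch, was lower in the members than in every class beside it. It was at 0.162, 0, 16.97 and 1.43 CPM in the members, 114.5, 285.4, 112.2 and 104.3 CPM in the G1 RGCs, 129.4, 65.4, 35.7 and 56.4 CPM in the IPCs of cluster 4, 157.1 and 130.4 CPM in the ENs of cluster 6 and 373.3, 129.7 and 79.2 CPM in the ENs of cluster 2. No day of the members overlapped any other class. Its ratio was -4.22 ± 1.42 to the G1 RGCs, -4.19 ± 1.86 to the ENs of cluster 2 and -3.17 ± 1.63 to the IPCs of cluster 4. Hey1 was detected in 8 of 67 members, against 50.3% of G1 RGCs and 27.7% of ENs of cluster 2.

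**Figure D3:**
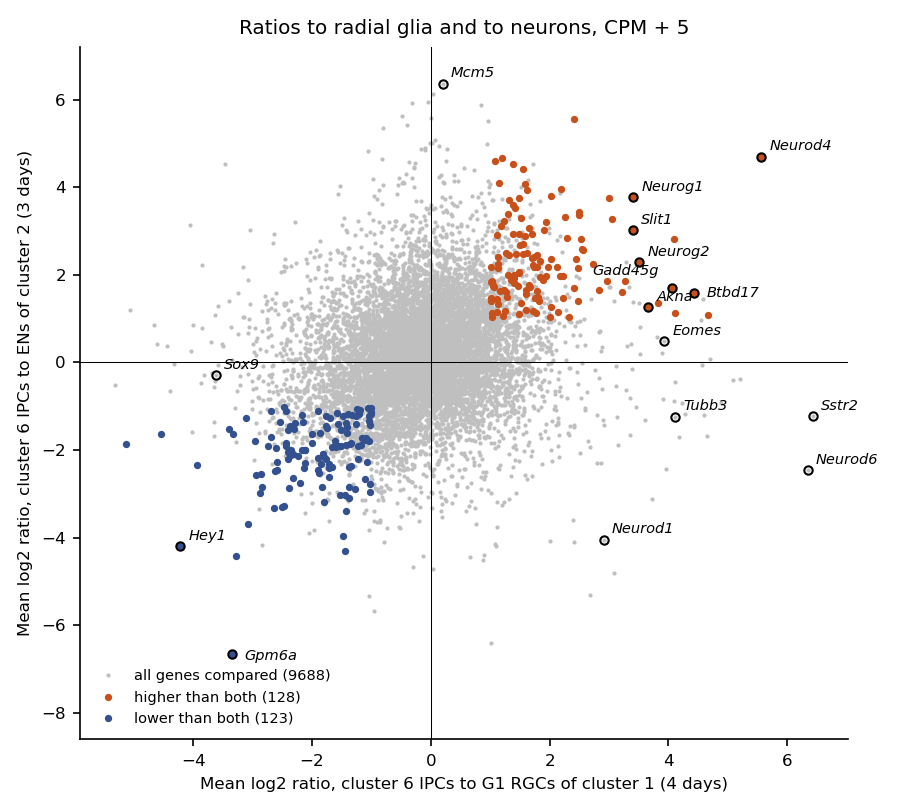
Each point is a gene by its mean log2 ratio in the members to the G1 RGCs of cluster 1 (x axis, 4 days) and to the ENs of cluster 2 (y axis, 3 days), both on CPM + 5. Orange marks the genes higher than both (1.32%) and blue those lower than both (1.27%). Neurod4, Neurog1 and Slit1 lie at the upper right, and Hey1 and Gpm6a at the lower left.

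Hey1 belonged to the 1.27% of 9688 genes that were lower than in both the G1 RGCs and the ENs, and 1.32% were higher than both. These shares depend on the days: without days 1 and 2 they were 5.81% and 2.38%. The naming rule gave 15 of the higher genes: the bHLH genes Neurod4, Neurog1 and Neurog2, the mitotic genes Prc1, Kif2c, Top2a, Casc5 and Cdc25b, the centriole gene Cenpj, the guidance ligand Slit1, and Sdc3, Ap1ar, Pot1a, Phldb2 and Rngtt. Slit1 was at 98.1, 92.4, 16.2 and 33 CPM in the members, with 4 counts in the G1 RGCs and at most 0.689 CPM on a day in the ENs of cluster 2. With members assigned to G1 only, 7 of the 15 were still counted, and Prc1, Sdc3, Ap1ar, Cdc25b, Kif2c, Top2a, Phldb2 and Rngtt were not. Without days 1 and 2, 11 of the 15 were counted. Without the members with the most counts, 6 were: Neurod4, Neurog1, Neurog2, Slit1, Kif2c and Top2a.

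The 6 named genes of the lower set were Hey1, Gpm6a, a membrane glycoprotein of growing axons, Tspan13, a tetraspanin, Ppp3ca, the calcineurin catalytic subunit, Adgrl2, a latrophilin, and Flrt3, an adhesion molecule that binds latrophilins. All 6 were still counted with G1 members only and without days 1 and 2. They were also counted without the members with the most counts, but that setting tends to lower the members' levels and is no check on lower genes. Gpm6a was at 0.487, 0, 0.746 and 47.2 CPM in the members, 236.6, 14.03, 151.6 and 118.9 CPM in the G1 RGCs and 1025, 1311 and 1110.4 CPM in the ENs of cluster 2. It was detected in 10 of 67 members, 37.6% of G1 RGCs and 87.7% of ENs. Tspan13 was at 0.162, 0, 47.5 and 177.5 CPM in the members, and its day 4 value lay above the RGC values of days 1 and 2. Adgrl2 was at 0.162, 12.2, 2.05 and 20.1 CPM against 83.9, 25.1, 81.8 and 94.6 CPM in the G1 RGCs and 45.8, 104.6 and 91.1 CPM in the ENs. Flrt3 was at 0, 0, 153.1 and 2.61 CPM in the members, present almost only on day 3, and the gene Macrod2 overlaps it.

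The members had more of the S phase genes and of most G2/M genes than the ENs of cluster 2, and less of most G2/M genes than the IPCs of cluster 4. Of 30 S phase genes, none was higher or lower than in the G1 RGCs (median -0.03). All 30 were higher than in the ENs of cluster 2 (median 3.95, against 0.07 for all genes), and 27 without the members with the most counts. With G1 members only, all 30 were still counted as higher than in the ENs (median 3.79). Of 29 G2/M genes compared with the ENs, 19 were higher and none lower (median 2.51). With G1 members only 13 of 28 were higher and 4 lower (median 1.02), and without the members with the most counts 11 of 29 were higher and 2 lower (median 1.41). Against the IPCs of cluster 4, the S phase genes Mcm3, Gins2, Ung and Chaf1b were higher, of which Gins2 alone was still counted without the members with the most counts.

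Mcm5, a subunit of the replicative helicase, was at 560.6, 588.5, 758 and 1024 CPM in the members, 445.1, 651.4, 662.99 and 763 CPM in the G1 RGCs and 0, 27.8 and 0.0850 CPM in the ENs of cluster 2. Its ratio was 0.20 ± 0.25 to the G1 RGCs and 6.36 ± 1.63 to the ENs. Cdc6, which loads that helicase, was at 95.7, 247.7, 323.3 and 513.7 CPM in the members and 169.5, 252.9, 259.4 and 319.98 CPM in the G1 RGCs, and had reads in 3 ENs of cluster 2. The rule also named Uhrf1, Mcm3, Exo1, Fignl1, Mcm6, Top2a, Rrm2, Dtl and Mcm4 as higher than in the ENs, all of DNA replication, repair or chromatin. The ratios of these 9 ran from 5.35 ± 0.36 for Mcm4 to 5.94 ± 1.40 for Uhrf1. The genes named as lower included Negr1 (0, 0, 0.746 and 0.261 CPM against 253.4, 302.1 and 249.2 CPM on days 2 to 4) and Robo2, a Slit receptor (0.324, 0, 54.6 and 25.8 against 468.5, 665.3 and 525.8 CPM). L1cam, an axonal adhesion molecule, had no read in 67 members (up to 4.48% of cells) and was at 119.9, 232.8 and 155.1 CPM in the ENs. Gpm6a, Cbln2, Sema3c, Fam49a, Cxcl12, Nhlh2, Clvs1, Nav1 and Apc2 completed that set. Cxcl12 was at 354.8, 110.2, 0 and 0.261 CPM in the members, so its low values were those of days 3 and 4.

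In single cells the S phase sum of the 30 genes had a median of 20266 CPM in the members, 18772 CPM in the G1 RGCs, 16450 CPM in the IPCs of cluster 4, 2386 CPM in the ENs of cluster 6 and 1214 CPM in the ENs of cluster 2. Of 46 members assigned to G1, 22 were at or above the lowest member assigned to S (19159.5 CPM), and 7 were below the highest EN of cluster 2 (4035 CPM). The sum over all members ranged from 22.7 to 33131 CPM, so the cluster was wide in this measure. Among the ENs of cluster 6, 12 of 18 were below that highest EN. The members and those ENs were close in the intermediate progenitor sum (medians 5337 and 5764 CPM).

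**Figure D4:**
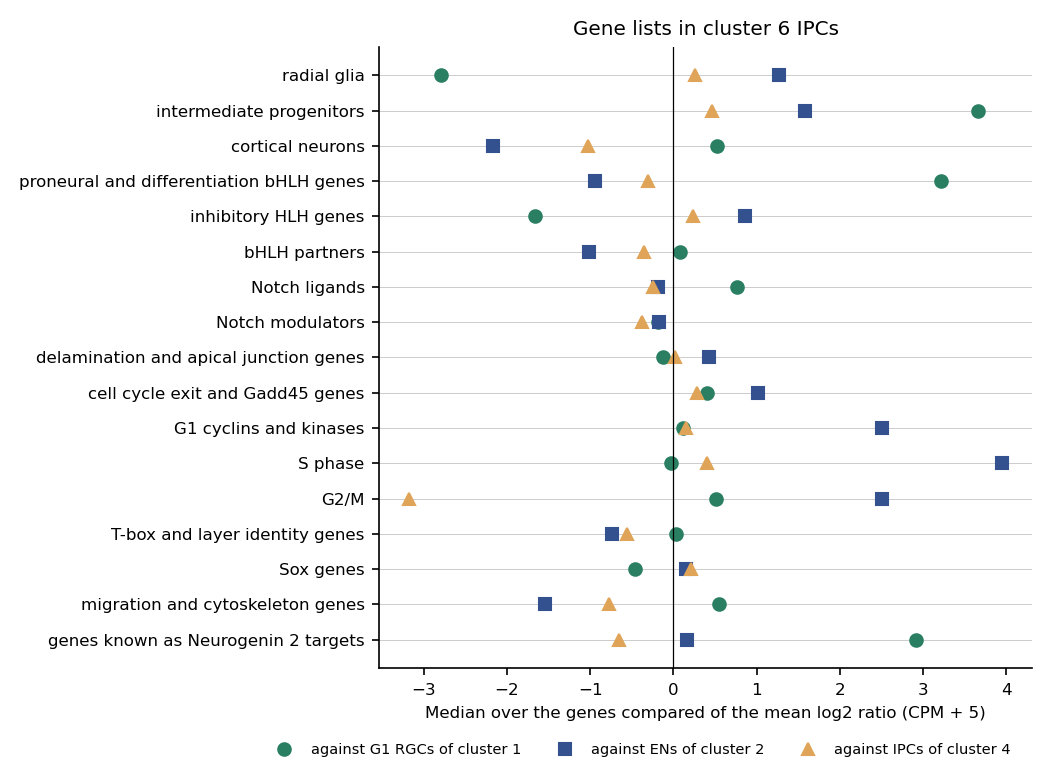
For each gene list, the median over the genes compared of the mean log2 ratio in the members to the G1 RGCs of cluster 1 (circles), the ENs of cluster 2 (squares) and the IPCs of cluster 4 (triangles). S phase genes lie at 0 against the G1 RGCs and near 4 against the ENs, and G2/M genes lie below -3 against the IPCs of cluster 4.

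Of 30 G2/M genes, 27 were lower than in the IPCs of cluster 4 (median -3.17), most of which the table assigned to G2M, so this difference is part of what the phase labels say. Without days 1 and 2 all 30 were lower. Mki67, a proliferation marker, was at 0, 2.17, 13.98 and 183.9 CPM in the members and 581.2, 340.5, 431.2 and 434.7 CPM in the IPCs of cluster 4. The rule also named Cenpe, Hmmr, Ccnb1, Ube2c, Cdc20, Cenpa, Tpx2, Espl1, Spc25, Fam83d and Nusap1, with ratios from -5.23 ± 0.9997 to -4.24 ± 1.32. Against the G1 RGCs 2 of 30 were higher (Top2a and Ccna2) and 1 lower (median 0.51), but with G1 members only the median was -1.02 with 11 lower, without days 1 and 2 it was -0.11, and without the members with the most counts it was -0.41. The median thus changed sign in each of these settings, and why it did was not tested. The last setting tends to lower the members' levels, and in it the S phase median against the G1 RGCs also fell, from -0.03 to -0.46.

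Genes higher in the members than in the IPCs of cluster 4 were led by Fbxl20, Ung and Ccnd1. Ung, a uracil DNA glycosylase of replicating cells, was at 115.1, 66.2, 161.7 and 249.7 CPM against 1.26, 29.97, 3.71 and 21.3 CPM. Ccnd1, the G1 cyclin D1, was at 428.6, 221.9, 379.1 and 374.3 CPM in the members, 11.9, 36.6, 39.6 and 71.7 CPM in the IPCs of cluster 4 and 169.9, 240.4, 278.9 and 242.2 CPM in the G1 RGCs. The members did not overlap the IPCs of cluster 4, with a ratio of 3.13 ± 1.09, and did overlap the G1 RGCs (0.56 ± 0.59). Of 13 G1 cyclins, kinases and E2F genes, 10 were higher than in the ENs of cluster 2 (6 without the members with the most counts) and only Ccnd1 was higher than in the IPCs of cluster 4. Dnajc3, Ipo4, Tceanc2, Ralgds, Trip4, Atg5, Rit1, Smg1 and Wscd1 were the others named, with reads in 18 to 27 of 67 members and ratios from 2.30 ± 1.44 to 2.92 ± 1.46. Of the 12 genes named here Fbxl20, Ccnd1 and Ipo4 were still counted without the members with the most counts.

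Among genes of cell cycle exit, Btg2, an antiproliferative gene of differentiating divisions, was higher than in all 3 classes. It was at 331.1, 632.03, 582.5 and 660.1 CPM in the members, 146.3, 298.4, 121.2 and 82.5 CPM in the G1 RGCs, 191.3, 163.1, 313.3 and 462.1 CPM in the IPCs of cluster 4 and 103.2, 156.96 and 109.6 CPM in the ENs of cluster 2. The ratios were 1.84 ± 0.89, 1.02 ± 0.62 and 2.32 ± 0.40, and 61 of 67 members held a read. The ratio to the IPCs of cluster 4 was 0.49 and no longer counted without the members with the most counts. Cdkn1c, the inhibitor p57, was at 141.2, 8.28, 2.05 and 13.3 CPM in the members, 110.1, 25.9 and 38.7 CPM in the ENs on days 2 to 4, and had 1 count in the G1 RGCs. It was detected in 10 members, of which 1 gave 65.7% of the day 1 counts. Cdkn1b, the inhibitor p27, was at 74.3, 112.8, 107.2 and 139.4 CPM in the members and 46.2, 20.3, 109.2 and 73.8 CPM in the G1 RGCs, and the sign of the difference changed between days.

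The marks were detected in members of every phase. Neurog1 was detected in 33 of 46 members in G1, 15 of 16 in S and 5 of 5 in G2M. Gadd45g was detected in 45 of 46, 16 of 16 and 5 of 5. Sox9 and Neurod6, marks of radial glia and of neurons, were detected together in 22 of 67 members, Pax6 and Eomes in 34, and Neurod4 and Neurod1 in 5. These counts depend on the depth of each cell.

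In each of the remaining lists a minority of genes was counted against the G1 RGCs, beside 4.56% higher and 8.93% lower over all genes. Of 15 Notch modulators, Mfng and Numbl, an adaptor that limits Notch, were higher and Lfng, Rfng, Maml2 and Nrarp lower. Of 10 Sox genes, Sox4 and Sox11 were higher and Sox8 and Sox9 lower. Of the T-box and layer identity genes, Eomes and Foxp2 were higher and Rorb lower, and against the ENs of cluster 2 a set of 7 of 16 was lower. Of 15 genes of cell cycle exit and the Gadd45 family, Cdkn1c, Gadd45g, Btg2 and Rb1 were higher and Cdkn2c and Btg1 lower. Of 20 migration and cytoskeleton genes, Rnd2, Dcx, Nrp1, Tubb3 and Stmn1 were higher and Dclk1, Dab1 and Flrt3 lower. Of the higher genes of this paragraph, Numbl, Foxp2, Cdkn1c, Rb1, Rnd2, Dcx and Nrp1 were no longer counted without the members with the most counts.

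Neuronal structure genes were present but below the neurons. Tubb3, a neuronal tubulin, was at 1234, 825, 377.4 and 671.5 CPM in the members, 71.2, 14.4, 23.5 and 65.5 CPM in the G1 RGCs, 1183, 535.4, 768 and 633.4 CPM in the IPCs of cluster 4 and 1433, 1579 and 1227 CPM in the ENs of cluster 2. Its ratio was 4.11 ± 0.93 to the G1 RGCs, -0.06 ± 0.69 to the IPCs of cluster 4 and -1.24 ± 0.71 to the ENs. Of 25 migration and cytoskeleton genes compared with the ENs, 15 were lower and 1, the Reelin receptor Vldlr, higher (median -1.54), Vldlr no longer without the members with the most counts. Sox11, a neuronal Sox factor, was at 1525, 1278, 5133 and 5650.4 CPM in the members, between the G1 RGCs (293.8, 478.2, 1319 and 1097 CPM) and the ENs (5162, 22794 and 20733 CPM). On each shared day Sox11 stood in that order, with ratios of 2.02 ± 0.45 and -2.01 ± 0.14.

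The sort allowed 1 more question, whether these cells were split by the reporter sort, which played no part in choosing them. Members made up 6.02% of the Hes5_GFP cells and 5.99% of the CAG_mRFP cells, and 36.1% and 33.3% of the IPCs of each group. By day the shares were 11.5%, 7.27%, 4.88% and 6.54% in Hes5_GFP and 12.5%, 8.70%, 6.25% and 4.57% in CAG_mRFP. The Hes5_GFP share was higher on 1 of 4 days. The mean difference, Hes5_GFP minus CAG_mRFP, was -0.446 ± 1.62 percentage points (SD, n = 4 days), with a two-sided exact sign-flip p of 0.625, in a design whose smallest p is 0.125. The groups were sorted onto separate plates for most cells, with 55 of 67 members on plates of 1 group, so plate and group cannot be told apart for those.

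**Figure D5:**
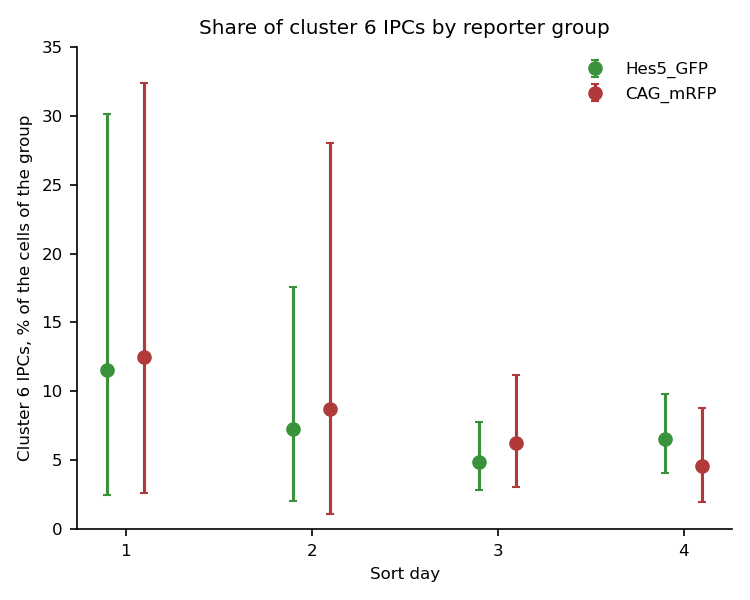
Cluster 6 IPCs as a percentage of the cells of each sort group (y axis) on the 4 sort days (x axis), with exact 95% binomial intervals. The shares run from 4.57% to 12.5% and the intervals of the groups overlap on every day.

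Gene levels of the members in the groups were compared with edgeR's quasi-likelihood test over the 3 days with at least 3 members of each group, with the day as a block. Of 9699 genes, 0 (0%) passed a Benjamini-Hochberg adjusted p of 0.05 and 80 had an unadjusted p under 0.05. On simulated data of this design the same test recovered 0% of 200 genes changed 2-, 4- or 8-fold, so a count of 0 says nothing on changes of those sizes. DESeq2 called 2.70% of 7442 genes with an adjusted p, 1.91% higher and 0.793% lower in Hes5_GFP. Of all the genes left unchanged in the simulations, with or without an adjusted p, it called from 3.27% to 4.11%. The shares thus have unlike bases. The reporters come first: eGFP was at 106.5, 26.5 and 22.7 CPM in Hes5_GFP members on days 1, 3 and 4 and at 8.61, 2.64 and 0 CPM in CAG_mRFP members. It was higher on all 3 days, with a log2 ratio of 4.60 ± 2.87 (SE) and an edgeR adjusted p of 1, and 50% and 21.7% of members held a read. mRFP had a log2 ratio of 2.01 ± 0.84 (SE; edgeR adjusted p of 1), and levels of 16100.3, 1364 and 215.4 CPM against 1226, 216.9 and 372.04 CPM. Without day 4, mRFP was the single gene called (3.18 ± 0.30, edgeR adjusted p of 0.00499), but a single Hes5_GFP member gave 96.3% of that group's mRFP counts of day 1 and another 54.4% of those of day 3. Without the member with the most mRFP counts in each group and day, the levels on days 1, 3 and 4 were 807, 653.6 and 189.7 CPM in Hes5_GFP and 786, 113.9 and 213.3 CPM in CAG_mRFP, so the day 1 difference rested on 1 cell. A test without these members was not run. For eGFP 1 member likewise gave 93.7% of the Hes5_GFP counts of day 1.

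Of the marks, Akna was lower in Hes5_GFP members on all 3 days, at 252.1, 73.2 and 67.1 CPM against 761, 321.9 and 128.3 CPM (log2 ratio -1.55 ± 0.70, SE; edgeR adjusted p of 1, unadjusted 0.0581). It was detected in 29.5% and 65.2% of members of the groups. Gadd45g was at 1176, 809 and 1183 CPM in Hes5_GFP and 304.3, 968 and 666.1 CPM in CAG_mRFP members, with overlapping days (0.84 ± 0.49, SE). Pax6 was higher in Hes5_GFP on all 3 days, at 11.3, 355.2 and 87.7 CPM against 10.7, 218.99 and 41.2 CPM (0.63 ± 1.10, SE). Sox9 was at 19.8, 196.4 and 26.9 CPM in Hes5_GFP and 164.4, 94.5 and 29.7 CPM in CAG_mRFP members, and its direction differed between days. For Neurog1, Neurog2, Btbd17 and Eomes the log2 ratios were 0.38 ± 1.46, 1.16 ± 1.51, -0.16 ± 0.90 and -0.30 ± 0.70 (SE), each with an edgeR adjusted p of 1. The largest ratios with 1 sign on all days, named by rule, were those of Frmd4a, Mief1, Noc3l, Katnal1, Slc25a22 and Dus3l (higher in Hes5_GFP) and Casp8, Klhl20, Fam109a, Btrc, Trak2 and Tmem201 (lower). Each had an edgeR adjusted p of 1. Mief1, a mitochondrial dynamics gene, had the smallest unadjusted p of these (0.00607) at 106.2, 217.98 and 94.8 CPM against 0, 1.58 and 0 CPM, and 1 member held all of its Hes5_GFP counts of day 1.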

How the data were processed

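Full-length single-cell RNA was measured in 1115 cells, each 1 sample, in the 2 sort groups. The deposited tables hold estimated counts of 16839 genes per cell, which the authors wrote as whole numbers, normalized values, which the authors gave as the natural log of 1 plus counts per 10000, and a cell table with cluster, cell type, phase, plate, sort day and mitochondrial fraction. HISAT2, Seurat 2 and mm10 are named in the submitters' processing notes. The counter, annotation and phase method were not given in the sources used here. Back-calculation from the normalized table, with the totals of the deposited counts, left 2.80% of nonzero entries off a whole number (tolerance 0.01). This share does not by itself show whether the counts had been rounded. Cells were sorted singly into wells and no doublet caller was run. There were no molecular identifiers.

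Counts were summed per class and sort day, in days with at least 3 cells on both sides, as CPM. Genes reached 5 summed CPM on either side, and ratios were log2((CPM + 5)/(CPM + 5)). No test was run between clusters. The sort groups were tested on the share of members (exact sign-flip test over days) and with edgeR 4.0.16 in R 4.3.3 on sums of 3 days, with the day as a block, total counts as library size and Benjamini-Hochberg adjustment. DESeq2 1.42.0 was an alternative. The edgeR and DESeq2 steps were tested on simulated data with 200 changed genes. Same-numbered days of the 2 groups had correlations of 0.104, 0.0574 and 0.0877 of their deviations. The pairing comes from the shared sort day in the cell table. Python 3.11.15, numpy 2.4.6, pandas 2.3.3, scipy 1.17.1 and matplotlib 3.10.9 did the rest.

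Named genes were 22 always given, and, with at least 20 summed CPM, a read in at least 25% of cells of the higher side and 1 sign on every day, the 12 highest and 12 lowest ratios per comparison, 15 genes highest and 6 lowest against both RGCs and ENs, and 6 each way between sort groups. The members, the 11 cell type lists and the 15 other lists were chosen with earlier results of these data known. Some items that the rule or lists hold are not reported here.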

Additional observations from a re-analysis of the deposited data

Results flagged for a closer look

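Of 22 genes examined over the 4 sort days of the members, 3 had 1 day whose distance from the other days exceeded Dixon's 95% limit for 4 values. Chance gives about 1 in 20 such groups. Cdkn1c, the inhibitor p57, was at 141.248 CPM on day 1 and at 2.05 to 13.3 CPM on the other days, and 1 cell gave 65.7% of the day 1 counts. Mki67 was at 183.913 CPM on day 4, where 13 of 29 members held a read, and at 0 to 13.98 CPM on the other days. The plasmid transcript eGFP was at 330.135 CPM on day 2 and at 15.5 to 67.8 CPM on the other days, and 1 cell gave 98.9% of the day 2 counts.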

How the results depend on the processing

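Signs were followed for the named genes, each in the comparisons for which it was named, and for the genes always given in every comparison. Apart from 3 values below, none of these counted as higher or lower changed sign under the alternatives run. Shares below are percentages of the genes compared. With the authors' normalized values, whose ratios are compressed by the log, the genes counted as higher and lower were 0.454% and 0.407% against the G1 RGCs, 1.19% and 0.711% against the ENs of cluster 2, 0.0200% and 0.720% against the IPCs of cluster 4, and 0.0826% and 0% against both RGCs and ENs. With members in G1 only, 17.6% were lower than in the RGCs, 19.3% lower than in the ENs, 6.69% and 8.92% higher and lower than in the IPCs of cluster 4, and 6.09% lower than in both RGCs and ENs. With at least 5 cells per day, 17.1% were lower than in the ENs, 8.78% lower than in the IPCs of cluster 4 and 2.19% lower than in both. Without days 1 and 2, an alternative chosen after seeing the data, the shares were 7.27% and 16.9% (RGCs), 17.1% lower (ENs), 8.46% and 10.9% (IPCs of cluster 4), and 2.38% and 5.81% (both). Fewer days have to share a sign in these settings. Leaving out 1 day at a time gave 5.11% to 7.61% higher and 10.9% to 15.3% lower (RGCs), 14.6% to 18.5% and 12.9% to 17.1% (ENs), 4.61% to 7.04% and 6.96% to 8.78% (IPCs of cluster 4), and 1.32% to 2.71% and 1.74% to 4.25% (both). The median log2 ratio of all genes against the RGCs was -0.22, and -0.03 with the authors' normalized values. Without the member with the most counts of each gene on each day, a setting chosen after seeing the data, the genes named as higher that were still counted were 25 of 36 (RGCs), 24 of 35 (ENs) and 4 of 16 (IPCs of cluster 4). All those named as lower were still counted (23, 21 and 13). That setting takes cells from the members only and tends to lower their levels, so it is no check on the lower genes. Of the ratios followed, those that changed sign were of Hes5 to the ENs (-0.091) and of eGFP to the ENs (-0.28) and to the IPCs of cluster 4 (-0.088). Outside the ratios followed, that of Smg1 to the G1 RGCs, counted as higher at 1.12, became -0.14 in the same setting. Cluster 4 held only 2 IPCs in G1, so a G1 to G1 comparison with it was not run.

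Between sort groups, edgeR called 0 genes with the day block and 0 with no replicate block (0.825% and 1.99% of genes at an unadjusted p under 0.05). It called 0 with TMM, without the filter, in G1 members, and in members with at least 50000 counts. Leaving out 1 day gave 0% to 0.0109%, which was mRFP alone without day 4. DESeq2 called 2.70%. The difference in share was -1.25 to -0.121 points with 1 day left out, with exact p from 0.25 to 1. Depth limits single members: 9 of 67 had under 50000 counts, and for genes in few cells 1 cell can set the level of a day.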
